A study of Sus scrofa with 15 samples.

Results

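The neutrophil genes described here are CXCL2, CXCL8 (also written IL8), CSF3, LCN2, S100A8, S100A9 and S100A12. They were chosen by name, as genes of neutrophil recruitment and neutrophil products that had a named probe on the array, and they make up 7 of 3020 genes and 10 of 43603 probes. CXCL2 was also among the cytokine genes that the study had picked from these same arrays, so its change is not independent evidence. RNA came from the right kidney of 15 Yorkshire pigs, all female and aged 20 weeks, with 1 array per pig and 5 pigs per group. In every group the left kidney had been removed 1 week earlier and the remaining kidney underwent 90 minutes of warm ischemia by clamping of its artery and vein, and the tissue was taken at 72 hours. Control pigs had no remote ischemic preconditioning (IPC). In the rIPCe group, remote IPC, which is repeated brief clamping of the artery to one hind leg, came immediately before the renal ischemia, and in the rIPCl group it came 24 hours before it. No kidney without ischemia was analysed here, so the values compare injured kidneys with and without remote IPC and give no level of the healthy organ. The study describes no sham procedure in place of remote IPC, so remote IPC and the surgery it needed cannot be told apart.

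CXCL2 and CXCL8 are chemokines that draw neutrophils out of the blood through the receptors CXCR1 and CXCR2, and CSF3 (granulocyte colony-stimulating factor) drives neutrophil production in the bone marrow. LCN2 (lipocalin 2, or NGAL) binds bacterial siderophores, is stored in neutrophil granules and is also made by injured tubule cells, for which it serves as a marker of acute kidney injury. S100A8 and S100A9 form calprotectin, the most abundant protein pair of the neutrophil cytosol, and S100A12 is a related calcium-binding protein. All 3 S100 proteins are released at sites of inflammation and act on receptors such as TLR4 and AGER (also called RAGE). Pig gene order in the assembly Sscrofa11.1 places S100A12 directly between S100A8 and S100A9, and CXCL8 directly beside AMCF-II, a pig neutrophil-attracting chemokine.

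Signals are given as log2 of the scanner's processed spot intensity after quantile normalization, so that a difference of 1 is a 2-fold change. Each gene was read from its brighter probe, and levels are not compared between genes because probes differ in brightness for reasons other than RNA amount. Between 62.2% and 74.2% of spots were well above background on each array, and control 5 had the lowest share. The shares were 62.2% to 69.5% in control, 67.4% to 73.9% in rIPCe and 71.8% to 74.2% in rIPCl. Every rIPCl array thus exceeded every control array, and the effect of this on genes near background was not tested. Arrays sat on 4 slides, which largely followed the groups. Slide 1 held control 1 to 4, slide 2 held control 5 with rIPCe 1 to 3, slide 3 held rIPCe 4 and 5 with rIPCl 1, and slide 4 held rIPCl 2 to 5. Slide and group can therefore be separated only through slides 2 and 3. In bulk tissue, fewer cells of a type and less RNA per cell cannot be told apart.

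**Figure D1:**
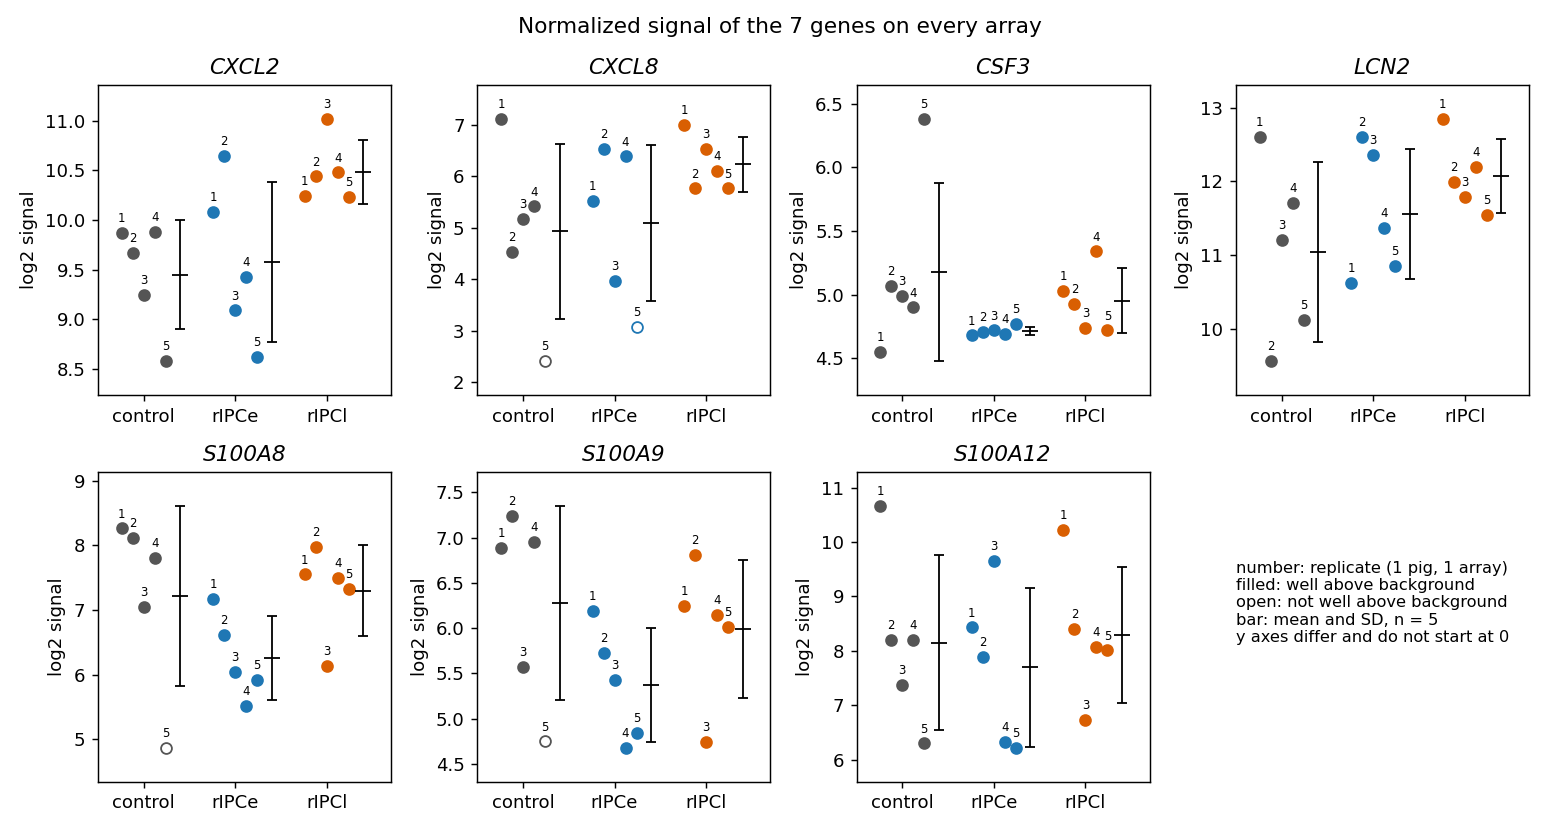
Log2 normalized signal (y axis) of the 7 genes on each of 15 arrays, by group (x axis), with the mean and SD of 5 arrays as a bar and open circles for spots not well above background. All 5 rIPCl arrays lay above all 5 control arrays for CXCL2, and the groups overlapped for the other 6 genes.

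CXCL2 was the gene of the 7 whose rIPCl arrays all lay above the control arrays. Its signals in control 1 to 5 were 9.87, 9.67, 9.25, 9.88 and 8.58. In rIPCe 1 to 5 they were 10.08, 10.65, 9.09, 9.43 and 8.62. In rIPCl 1 to 5 they were 10.24, 10.44, 11.02, 10.48 and 10.23. The lowest rIPCl array was thus above the highest control array, whereas the rIPCe arrays spread over the range of both other groups. The mean was 10.48 ± 0.32 (SD, n = 5) in rIPCl against 9.45 ± 0.55 in control, a 2.04-fold difference (log2 1.03, SE 0.35, 95% confidence interval 0.27 to 1.79). In limma its unadjusted p was 0.0114 and its adjusted p over all probes was 0.0863, and the two-sided exact permutation test gave p = 0.00794, the smallest value that 5 against 5 arrays allow. Left out in turn, control 3, control 5 and rIPCl 3 each took the fold change below 2, to log2 values of 0.98, 0.81 and 0.90, with unadjusted limma p-values of 0.025, 0.0346 and 0.0321. The second CXCL2 probe, which followed the first closely over the arrays (Pearson r = 0.967), differed by 1.12 on the log2 scale, with an adjusted limma p of 0.0507 and again p = 0.00794 in the exact permutation test.

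The rIPCe arrays spread more widely. CXCL2 averaged 9.57 ± 0.80 in rIPCe, 0.12 above control on the log2 scale (95% interval -0.64 to 0.88, adjusted p = 0.909). rIPCe 1 and rIPCe 2 were above every control array and the other 3 lay within the control range. The rIPCl mean was 0.91 above the rIPCe mean (interval 0.15 to 1.67). For this direct comparison of the 2 preconditioned groups the unadjusted p was 0.0224, the adjusted p was 0.979 and the exact permutation p was 0.0794. The 2 contrasts against control use the same 5 control arrays. On slide 2 rIPCe exceeded control 5 by 1.36, and on slide 3 rIPCl 1 exceeded the 2 rIPCe arrays by 1.22.

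CXCL8 had its tightest group in rIPCl and its widest in control. Signals in control 1 to 5 were 7.11, 4.53, 5.16, 5.41 and 2.41, the last not well above background. In rIPCe 1 to 5 they were 5.52, 6.52, 3.97, 6.38 and 3.07, with rIPCe 5 also not well above background. In rIPCl 1 to 5 they were 6.99, 5.76, 6.53, 6.10 and 5.76. Each rIPCl array exceeded 4 of the 5 controls, but control 1 was the highest of all 15 arrays. The rIPCl mean was 1.30 above control on the log2 scale, a 2.47-fold difference with a 95% interval from -0.41 to 3.01 (adjusted p = 0.312), so neither no difference nor a large one lies outside it. rIPCe differed from control by 0.17 (adjusted p = 0.947) and rIPCl from rIPCe by 1.13 (adjusted p = 0.979). Without control 1 the rIPCl difference was 1.85 (unadjusted p = 0.0281, adjusted p = 0.141), and without control 5 it was 0.67. With normexp background correction it was 0.44 (adjusted p = 0.282).

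CSF3 was nearly constant within rIPCe but not within control. It was 4.55, 5.07, 4.99, 4.90 and 6.38 in control 1 to 5. It was 4.68, 4.71, 4.72, 4.69 and 4.77 in rIPCe 1 to 5, an SD of 0.034. In rIPCl 1 to 5 it was 5.03, 4.93, 4.74, 5.34 and 4.72. Control 5 stood alone above the rest, and the other 14 arrays lay between 4.55 and 5.34. The rIPCl and rIPCe means were 0.23 and 0.46 below control on the log2 scale (adjusted p = 0.609 and 0.432). Without control 5 the rIPCl difference turned to 0.07 and the rIPCe difference shrank to -0.16. The second CSF3 probe was not well above background on 14 of 15 arrays and did not follow the first (r = -0.21), so CSF3 rests on a single dim probe.

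LCN2 was well above background on all arrays and varied most among the controls. Signals in control 1 to 5 were 12.60, 9.56, 11.20, 11.71 and 10.12. In rIPCe 1 to 5 they were 10.62, 12.60, 12.36, 11.37 and 10.85, and in rIPCl 1 to 5 they were 12.85, 11.99, 11.79, 12.20 and 11.55. All 5 rIPCl arrays exceeded 3 of the 5 controls, while control 1 was above all rIPCl arrays but the first. The rIPCl mean of 12.08 ± 0.50 was 1.04 above the control mean of 11.04 ± 1.22 (95% interval -0.13 to 2.20). The adjusted limma p was 0.236 and the exact permutation p was 0.135. The corresponding difference of rIPCe from control was 0.52 (interval -0.64 to 1.69, adjusted p = 0.69), and that of rIPCl from rIPCe was 0.52 (interval -0.65 to 1.68, adjusted p = 0.979). Without control 1 the rIPCl difference was 1.43 (unadjusted p = 0.0134, adjusted p = 0.0952). Without control 2 it was 0.67. The 2 LCN2 probes gave almost the same values (r = 0.999).

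S100A8 and S100A9 showed another order, with the lowest means in rIPCe. S100A8 signals were 8.26, 8.12, 7.05, 7.81 and 4.87 in control 1 to 5, 7.17, 6.62, 6.04, 5.52 and 5.92 in rIPCe 1 to 5, and 7.55, 7.98, 6.13, 7.50 and 7.33 in rIPCl 1 to 5. S100A9 followed the same order of arrays closely, with 6.89, 7.24, 5.57, 6.95 and 4.75 in control, 6.19, 5.73, 5.43, 4.68 and 4.84 in rIPCe, and 6.25, 6.81, 4.74, 6.15 and 6.01 in rIPCl. Control 5 was the lowest control for both and was not well above background for either, and rIPCl 3 was the lowest of its group for both. Apart from rIPCl 3, the rIPCl arrays lay above every rIPCe array for S100A8.

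Against control, rIPCe was lower by 0.97 for S100A8 (95% interval of the difference -2.20 to 0.27, adjusted p = 0.462) and by 0.90 for S100A9 (interval -1.98 to 0.17, adjusted p = 0.425). rIPCl was close to control, at 0.08 for S100A8 (interval -1.16 to 1.32) and -0.29 for S100A9 (interval -1.36 to 0.78). Between the preconditioned groups S100A8 was 1.05 higher in rIPCl (interval -0.19 to 2.28, adjusted p = 0.979), with an exact permutation p of 0.0476, and S100A9 was 0.62 higher (exact permutation p = 0.198). Control 5 weighed heavily here. Without it, rIPCe was 1.55 below control for S100A8 (unadjusted p = 0.00201, adjusted p = 0.108) and 1.29 below for S100A9 (unadjusted p = 0.0129, adjusted p = 0.166), and the rIPCl difference of S100A8 became -0.51. On slide 2, where control 5 is the sole control, rIPCe exceeded it by 1.74 for S100A8 and 1.04 for S100A9, the opposite direction.

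S100A12 had the widest spread of the 7 genes. Its signals were 10.67, 8.20, 7.38, 8.20 and 6.30 in control 1 to 5, 8.43, 7.89, 9.66, 6.32 and 6.22 in rIPCe 1 to 5, and 10.22, 8.40, 6.73, 8.08 and 8.01 in rIPCl 1 to 5. Control 1, rIPCe 3 and rIPCl 1 were the high arrays, with 1 in each group, and the groups overlapped over nearly the whole range. Group differences were 0.14 for rIPCl and -0.45 for rIPCe against control, and 0.59 for rIPCl against rIPCe, with adjusted p-values of 0.941, 0.849 and 0.983. The interval for rIPCl against control, -1.70 to 1.97, leaves room for changes of more than 2-fold either way.

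**Figure D2:**
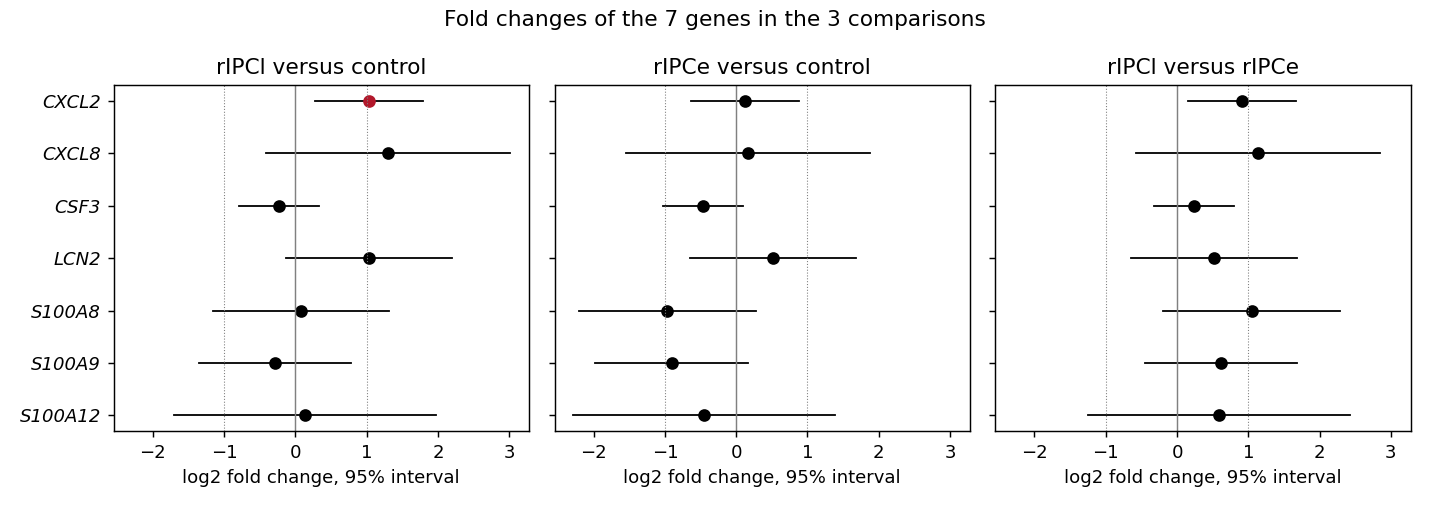
Log2 fold change (x axis) of each gene (y axis) with its 95% interval in the 3 comparisons, from limma on 15 arrays; dotted lines mark a 2-fold change and red marks the unadjusted criteria (2-fold or more, with p under 0.05 before adjustment). The interval excluded 0 for CXCL2 in both comparisons that involve rIPCl, and included 0 for the other 6 genes in each of the 3 comparisons.

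Read together, the 7 genes did not move as a block. In rIPCl against control, 5 of 7 were higher, with a median log2 difference of 0.14 against -0.03 over all probes. CXCL2 alone met the unadjusted criteria, meaning a difference of 2-fold or more with a limma p under 0.05 before adjustment, which is 1 of 7 beside 5.83% of all probes in either direction and 3.67% in the upward direction. None of the 7 had an adjusted p under 0.05 in limma, beside 6.27% of probes (from 0.112% without rIPCl 5 to 11.3% without rIPCl 1), although 1 had an unadjusted p under 0.05, and the methods' t-test also gave 0 after adjustment. CXCL2 was also the single gene whose arrays did not overlap between the groups, beside 9.48% of probes. In rIPCe against control, 3 of 7 were higher with a median of -0.45, and 0 of 7 met the unadjusted criteria (2.18% of probes), had an adjusted p under 0.05 (0.00229% of probes) or had groups that did not overlap (3.31% of probes). In rIPCl against rIPCe all 7 were higher, beside 47.5% of probes, with a median of 0.62. None met the unadjusted criteria (0.525% of probes), had an adjusted p under 0.05 (0% of probes) or separated the groups (0.706% of probes), and the 7 values rest on the same 10 pigs and on genes that vary together.

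The spread within groups was large for these genes, and with 1 array per pig it holds differences between pigs and between arrays alike. The residual SD within groups was 0.59 for CXCL2, 1.35 for CXCL8, 0.92 for LCN2, 0.98 for S100A8, 0.84 for S100A9 and 1.45 for S100A12. These were larger than the residual SD of 91.2% to 99.6% of the probes well above background on all arrays, whose median was 0.30. CXCL8, S100A8 and S100A9 had arrays not well above background, unlike those probes, so their rank in spread is not a like comparison. CSF3, at 0.43, exceeded 76.7% of them. Control 1 was the highest control for 4 of the 7 genes (CXCL8, LCN2, S100A8 and S100A12), and control 5 was the lowest for 5 of the 7 (CXCL2, CXCL8, S100A8, S100A9 and S100A12).

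**Figure D3:**
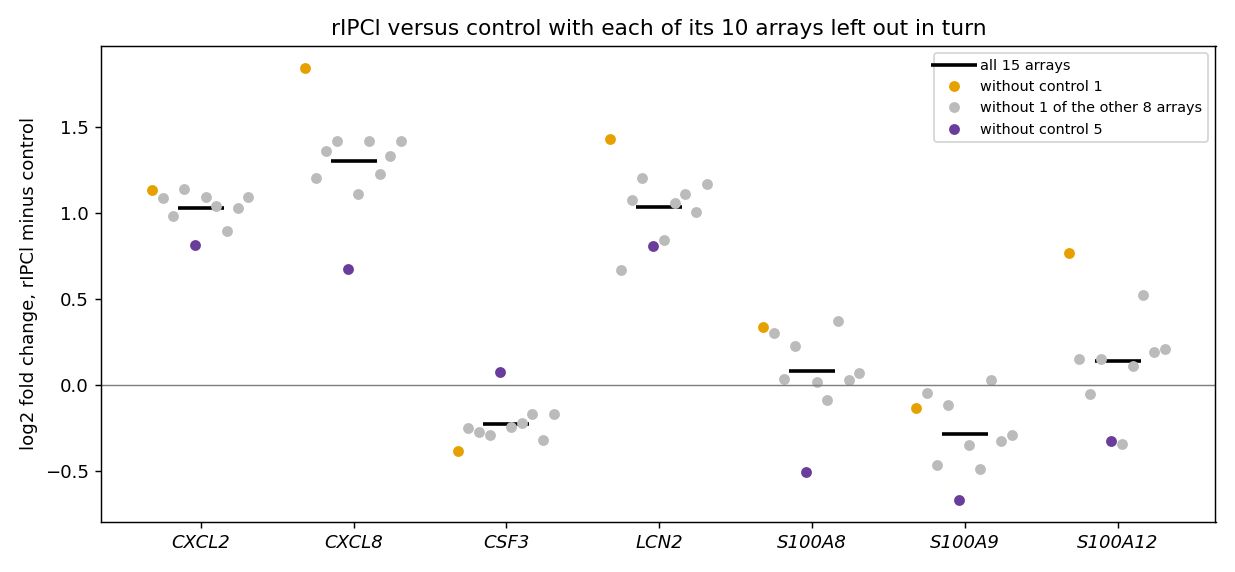
Log2 fold change of rIPCl against control (y axis) for each gene (x axis) with all arrays (bars) and with each of the 10 arrays of that comparison left out in turn (points, control 1 in yellow and control 5 in purple). CXCL2, CXCL8 and LCN2 stayed above 0 throughout, and the other 4 genes had values on both sides of 0. For CXCL2 this followed from groups that did not overlap.

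Which control pig was left out decided how many of the genes met the unadjusted criteria in rIPCl. Without control 1 there were 3 of 7 (CXCL2, CXCL8 and LCN2), when 6.82% of all probes met them. Without control 5 there were 0 of 7, when 6.77% of probes met them. Without control 3 or rIPCl 3 there were also 0, when 5.77% and 4.8% of probes met them. In rIPCe against control, leaving out control 5 gave 2 of 7, S100A8 and S100A9 in the downward direction, beside 2.81% of probes. No member had an adjusted p under 0.05 with any 1 array left out. With slide as a block, the rIPCl contrast with control rests on control 5 and rIPCl 1, joined through the rIPCe arrays on their slides. Calls from that fit are therefore not counted. The rIPCl differences there were upward for all of the 7 genes but CSF3. CXCL2 was 2.58 and S100A12 6.32 above control on the log2 scale, and rIPCl 1 was the highest rIPCl array for S100A12.

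Over the 15 arrays the closest correlation among the 7 genes was that of S100A8 and S100A9. S100A8 and S100A9, the partners of calprotectin, correlated at Pearson r = 0.940 (Spearman rho = 0.939). The r was 0.945 after each group's mean was subtracted, between 0.938 and 0.998 within the 3 groups, and 0.954 without control 5. S100A12, their neighbour in the genome, followed them less closely, at r = 0.667 with S100A8 and 0.674 with S100A9. The chemokines CXCL2 and CXCL8 correlated at 0.804 (rho = 0.721), and at 0.735 without control 5, but at 0.164 within the 5 rIPCl arrays. LCN2 went with CXCL8 (r = 0.658) and S100A12 (r = 0.563) and little with S100A9 (r = 0.101). CSF3 had negative correlations with the other 6 genes, from -0.19 with S100A9 to -0.56 with CXCL8, but without control 5 they lay between -0.094 and 0.361. These are descriptions of 15 arrays that share groups, slides and a common normalization, and 21 pairs were computed.

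**Figure D4:**
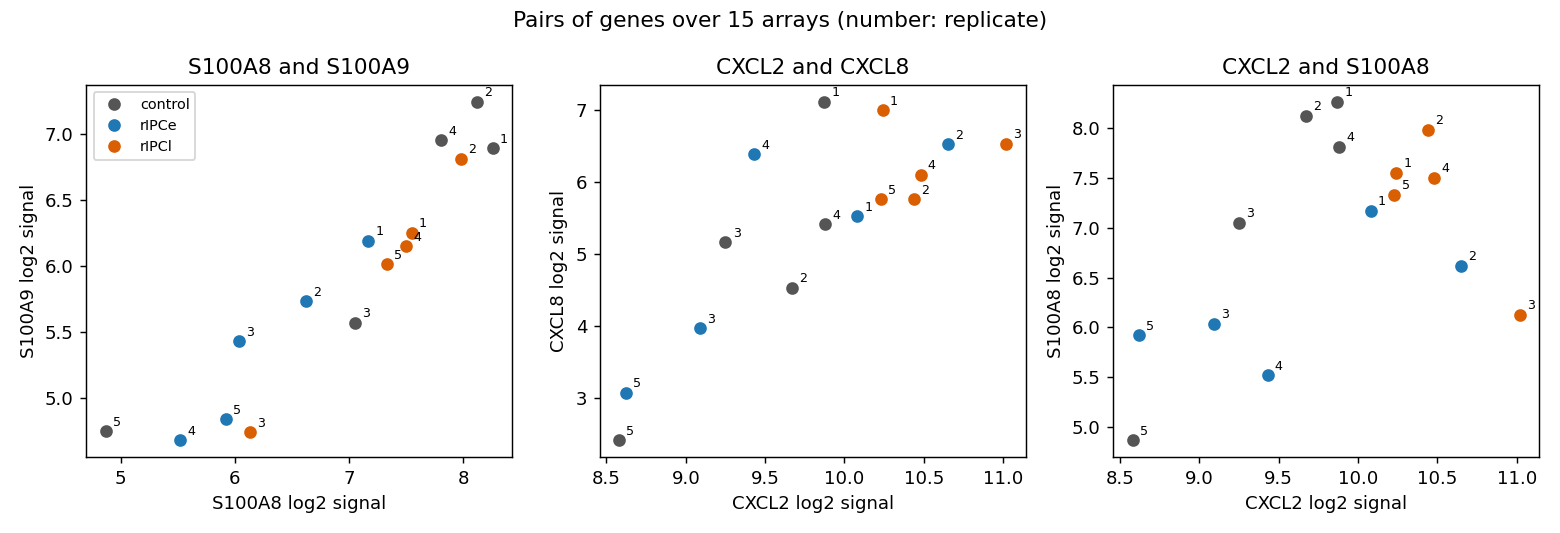
Log2 signals of 3 pairs of genes against each other on 15 arrays, coloured by group and numbered by replicate. S100A8 and S100A9 lay along 1 line across all groups, CXCL2 and CXCL8 rose together with more scatter, and rIPCl 3 combined the highest CXCL2 signal with low S100A8.

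CXCL2 and the S100 genes parted on 1 array of the late group, rIPCl 3. rIPCl 3 had the highest CXCL2 signal of all 15 arrays and the lowest S100A8, S100A9 and S100A12 signals of its group. Among the 5 rIPCl arrays the correlation of CXCL2 was -0.81 with S100A8, -0.79 with S100A9 and -0.77 with S100A12. Among the 5 control arrays it was 0.97, 0.95 and 0.81. Each of these values rests on 5 arrays, and control 5 and rIPCl 3 lie at the ends of the range in their groups. rIPCl 3 was at 11.02 for CXCL2, against 10.48 for the next array, and at 6.13 for S100A8, against 7.33. Among the remaining rIPCl arrays, rIPCl 5 was the lowest for CXCL2 (10.23), S100A8 (7.33) and S100A9 (6.01). The negative values for S100A8 and S100A9 within rIPCl therefore rest on rIPCl 3.

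Each gene was also set beside the rest of the array, as a description. Among 2382 other named genes well above background on all arrays, the 3 most like CXCL2 were PPP1R18 (r = 0.872), the endothelial adhesion molecule ICAM1 (0.862) and the monocyte chemokine CCL2 (0.849). Nearest to CXCL8 were KLF10 and the transcription factor NFKB1, both at 0.834, and GNAI2 at 0.830. LCN2 was closest to ANKRD1 (0.910), the cytokine IL6 (0.881) and the antimicrobial lectin REG3G (0.874). S100A12 was closest to LBP, the lipopolysaccharide-binding protein (0.883), HIF1A, the oxygen-regulated transcription factor (0.842), and ARHGEF2 (0.770). For S100A8 the nearest were FYCO1 (0.847) and DAD1 (0.821), and for S100A9 they were ECI2 (0.835), LGALS8 (0.813) and DAD1 (0.802). CSF3, whose value in control 5 stands apart, was closest to CLN8 (0.872), NTRK3 (0.831) and CCR9 (0.770).

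**Figure D5:**
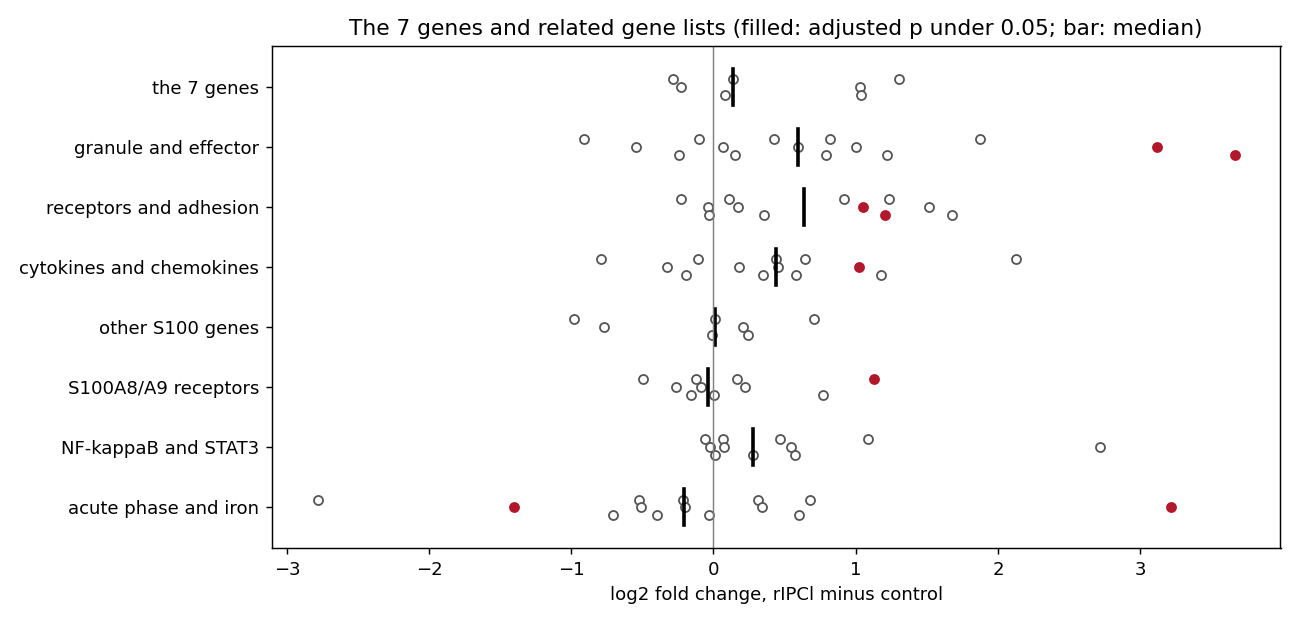
Log2 fold change of rIPCl against control (x axis) for the 7 genes and for each measured gene of 7 related lists (y axis), with filled points for an adjusted limma p under 0.05 and a bar at each median. LYZ and CHI3L1 lay far to the right of the other granule genes, and the 7 genes lay between -0.29 and 1.30.

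The calls in the listed genes moved with single arrays, as the calls over all probes did. Of 35 listed genes that passed either rule in rIPCl against control, 32 met the unadjusted criteria, and 17 of these did so with each of the 10 arrays left out in turn. Of the 16 with an adjusted p under 0.05, 0 kept it with each array left out, and no gene kept it in more than 8 of the 10 cases. Over all probes 6.27% had an adjusted p under 0.05, and from 0.112% to 11.3% with 1 array left out. By the unadjusted criteria it was 5.83%, and from 4.8% to 6.91% with 1 left out. Upward it was 3.67%. The list counts below stand beside these shares.

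Neutrophil granule and effector genes were measured for 15 of 30 listed, and some of those that were higher in rIPCl, such as LYZ and CHI3L1, are also expressed by macrophages. LYZ (lysozyme) was 3.66 higher on the log2 scale (SE 0.73, adjusted p = 0.0239) and CHI3L1, a chitinase-like protein, 3.12 higher (adjusted p = 0.0207). BPI, a bactericidal granule protein (1.22), and the NADPH oxidase subunits GP91-PHOX (1.87) and NCF1 (1.01) met the unadjusted criteria without an adjusted p under 0.05. That made 5 of 15 higher by the unadjusted criteria and 2 by the adjusted p, with a median of 0.59. Over all probes 3.67% were higher by the unadjusted criteria, and 6.27% had an adjusted p under 0.05 in either direction. With 1 array left out the first count ranged from 3 (without control 2, control 4 or rIPCl 2) to 6 and the second from 0 to 5. The secondary granule protein LTF (lactoferrin), by contrast, was 0.91 lower than control (adjusted p = 0.321), MMP9, a gelatinase, differed by 0.06 (adjusted p = 0.933), and NPG4, a pig antimicrobial peptide, by 0.15. In rIPCe, LYZ and CHI3L1 met the unadjusted criteria against control (2.15 and 1.68), and CHI3L1 was also 1.44 higher in rIPCl than in rIPCe by those criteria, with adjusted p-values of 0.232, 0.224 and 0.979.

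Of 26 receptors and adhesion molecules, 12 were measured and 5 met the unadjusted criteria upward in rIPCl, beside 3.67% of all probes. The count was 3 without control 3, control 5 or rIPCl 3. The integrin chain ITGAL (1.20, adjusted p = 0.0429) and ICAM1 (1.05, adjusted p = 0.0395) also had an adjusted p under 0.05, and the other 3 were the integrin chain ITGB2 (1.51) and the Fc receptors FCGR3A (1.24) and FCGR1A (1.68). The endothelial selectins that start neutrophil rolling did not differ beyond their spread, with SELE at -0.04 and SELP at 0.11. TREM1, an amplifying receptor of neutrophils and monocytes, met the unadjusted criteria downward in rIPCe (-1.01, adjusted p = 0.24), where it was well above background on 0 of 5 arrays.

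Of 28 listed cytokines and CXC chemokines 13 were measured. IL1A (1.03, adjusted p = 0.0251) and IL1B (2.13, adjusted p = 0.0641), cytokines that induce the chemokines, were higher in rIPCl by the unadjusted criteria, beside 3.67% of probes. Each was well above background on 3 of 5 control arrays, and the count was 1 without control 5 or rIPCl 3 and 3 without control 2 or rIPCl 2. IL6 and TNF were 0.46 and 0.64 above control (adjusted p = 0.512 and 0.103). AMCF-II, the neighbour of CXCL8, was 1.83 higher in rIPCl than in rIPCe by the unadjusted criteria (adjusted p = 0.979). In the 7 measured genes of the other S100 proteins and their annexin partners, 0 met the unadjusted criteria and the median was 0.01. TLR2, a receptor of bacterial lipoproteins, was 1.13 higher (adjusted p = 0.0342), whereas TLR4 differed by 0.17. TLR2 was the sole one of 10 genes of S100A8 and S100A9 reception to meet either criterion. Over all probes 3.67% met the unadjusted criteria upward and 6.27% had an adjusted p under 0.05. AGER was not well above background on any control array and was so on 3 of 5 rIPCl arrays. Of 11 NF-kappaB and STAT3 response genes, TNFAIP3 (1.09), an inhibitor of that pathway, and TNFAIP6 (2.72) met the unadjusted criteria, and TNFAIP3 did not without control 5 (0.84) or rIPCl 3. TNFAIP6 was well above background on 1 of 5 control arrays and on all 5 rIPCl arrays, so its difference rests on control values that were mostly not measured above background. SAA3, an acute phase protein, was 3.22 higher (adjusted p = 0.0244), while ITIH4 was 1.40 lower (log2 difference -1.40, adjusted p = 0.0451) and TF, transferrin, had a difference of -2.78 (adjusted p = 0.0916), among 14 acute phase and iron genes. The TF signal of rIPCl 5 was 6.21 and those of the other rIPCl arrays 10.95 to 12.86, and without rIPCl 5 the difference was -1.65.

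The name neutrophil could be checked against only 1 of 12 listed neutrophil markers, LTF, since CXCR1, CXCR2, CSF3R, MPO, ELANE, ITGAM and MMP8 had no named probe here. As given above, LTF did not pass either criterion. Its log2 signal ranged from 8.26 to 10.07 in control, 6.75 to 9.57 in rIPCe and 7.34 to 9.37 in rIPCl. Granule genes outside that marker list were also measured. Of these, BPI was 1.22 higher in rIPCl by the unadjusted criteria, and still so with 6 of the 10 arrays left out in turn. NPG4 passed neither criterion. Markers of other leukocytes mostly had higher means in rIPCl than in control, beside 45.9% of all probes. Among macrophage markers 4 of 5 were higher, and the lowest log2 difference was -0.12. Counts of these markers past a criterion stand beside 3.67% of all probes upward by the unadjusted criteria and 6.27% by the adjusted p. Macrophage markers were measured for 5 of 8, with 2 (MRC1 and CD80) higher by the unadjusted criteria and 1 (MRC1) by the adjusted p. The first count was 0 without control 3, control 5 or rIPCl 3, 1 without control 4, rIPCl 4 or rIPCl 5, 3 without rIPCl 1 and 4 without control 1. CD80 was well above background on 1 of 5 control arrays. The log2 sum of the macrophage markers ranged from 12.45 to 14.03 in control, 13.05 to 13.73 in rIPCe and 13.20 to 14.39 in rIPCl. T and NK cell markers were higher in 9 of 9, with 5 (CD3D, CD3E, CD4, CD8A and CD2) past the unadjusted criteria and 0 with an adjusted p under 0.05. The count of 5 became 2 without control 3, control 5, rIPCl 2 or rIPCl 3 and 3 without control 2 or control 4, and CD4 was well above background on 1 of 5 control arrays. Their sum ranged from 11.47 to 12.25 in control, 11.06 to 12.17 in rIPCe and 11.84 to 13.47 in rIPCl. Of 4 B cell markers CD79A and BLNK met both criteria, a count that by the unadjusted criteria was 1 without control 3, control 4 or control 5 and 0 without rIPCl 3. The proximal tubule transporter SLC22A8 and the enzyme FBP1 were lower in rIPCl (log2 differences -1.51 and -0.91, adjusted p = 0.0587 and 0.0386), and all 5 measured proximal tubule markers were well above background on every array, which bears on the label kidney. The part of these cell types in the CXCL2 difference was not tested.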

How the data were processed

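Kidney RNA was hybridized to 1-colour porcine arrays from Agilent, and the deposited intensity values were made by the authors with Agilent Feature Extraction 11.0.1.1, which corrected background and trend within each array. Per the file headers no normalization between arrays had been done, and the values in the deposited table are the unnormalized processed signals, averaged over spots, at all 43603 probes. Control spots and spots with an outlier mark (1 to 70 per array) were left out, log2 signals were quantile normalized, and probes were named through RefSeq accessions (6686 probes, 3020 genes). The brightest probe stood for a gene. Groups were compared in limma 3.58.1 (R 4.3.3) with 3 group means over 15 arrays and Benjamini-Hochberg adjustment over all probes, beside exact permutation tests over 252 assignments. The call rules were a fold of at least 2 with an unadjusted p under 0.05, and an adjusted p under 0.05. The study's stated criteria were the same fold and p threshold, and whether that p was adjusted is not given with them, though its methods name a Benjamini-Hochberg adjustment. With 5 arrays per group, their number limits the precision. Named genes were the 7 members, listed genes past either rule or defining their list, and the 3 genes most correlated with each member. The members and lists were chosen with earlier results of these data known. The scanner files read here hold no mean spot signal, so normexp used median signals. The code was tested on simulated data. Probe and promoter sequences were not analysed here, and a few genes that the naming rule would include are not reported here and were left out of the lists.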

Additional observations from a re-analysis of the deposited data

Results flagged for a closer look

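CSF3 stood apart on 1 array for each of its probes, by Dixon's test of the gap to the nearest array over the range of a group. On the brighter probe, control 5 had a log2 signal of 6.38, against 5.07 for the next control, a gap of 0.714 of the group's range and just over the critical value of 0.71 for 5 arrays. On the second probe, rIPCe 1 had 5.17, against 2.13 for the next array of the group, a gap of 0.807 of the range, and it was the sole array on which that probe was well above background. The other probe of CSF3 did not show the same array as high in either case. Chance flags about 1 in 20 groups, and 30 groups of 5 arrays were tested here, of which 2 stood out.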

How the results depend on the processing

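Differences below are on the log2 scale, and each setting changed 1 choice. Without normalization between arrays, 0 members met the unadjusted criteria in rIPCl against control, beside 9.38% of probes, where S100A8 turned to -0.010, and the median of all probes shifted to -0.24. With array quality weights, members past those criteria were 0 in rIPCl against control, 2 in rIPCe against control and 2 in rIPCl against rIPCe, beside 7.57%, 3.1% and 0.789% of all probes, and CXCL2 (0.89, adjusted p = 0.0348) was the 1 member with an adjusted p under 0.05 in rIPCl, beside 23.5% of probes. There S100A8 was -0.053 in rIPCl, and CXCL2 and CXCL8 were -0.11 and -0.24 in rIPCe. With slide as a block, where the contrast with control rests on control 5, the counts were 7, 4 and 2, beside 8.82%, 5.86% and 2.6% of probes, and CSF3 (-1.67, adjusted p = 0.00465) was the 1 member with an adjusted p under 0.05 in rIPCe, beside 2.73% of probes. In that fit S100A9 was 2.52 in rIPCl, and S100A8, S100A9 and S100A12 were 1.74, 1.04 and 2.36 in rIPCe. With slide as a random block S100A9 was 0.11 in rIPCl. In rIPCl against rIPCe the count was 1 with only the 10 arrays compared and 1 by the methods' t-test, beside 0.569% and 0.422% of probes. CSF3 in that comparison was -0.0996 as the mean of its probes and -0.44 by its other probe, which gave 0.13 in rIPCe against control. The cause of these shifts was not tested.

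With 1 array left out, members past the unadjusted criteria ranged from 0 to 3 in rIPCl against control, from 0 to 2 in rIPCe against control and from 0 to 1 in rIPCl against rIPCe. In rIPCl against control, 4.8% to 6.91% of all probes met them with 1 rIPCl or control array left out. Without control 5 the shares were 2.81% in rIPCe against control and 0.537% in rIPCl against rIPCe. In rIPCl the differences ranged from -0.38 to 0.075 for CSF3, from -0.51 to 0.37 for S100A8, from -0.67 to 0.026 for S100A9 and from -0.35 to 0.77 for S100A12. In rIPCe they ranged from -0.15 to 0.36 for CXCL2, from -0.46 to 0.72 for CXCL8 and from -0.94 to 0.18 for S100A12. In rIPCl against control, CXCL2 lay between 0.81 and 2.58 (slide as a block) under 30 alternatives, with adjusted p-values from 0.0348 to 0.262. Every rIPCl array lay above every control array for CXCL2, so leaving out 1 array could not reverse its direction. For any gene, leaving out an rIPCe array or using the methods' t-test keeps this difference by design. A tally of kept directions over these settings is therefore no measure of robustness. CXCL8 ranged from 0.44 with normexp to 5.18 with slide as a block under 29 alternatives (adjusted p-values from 0.141 to 0.557). LCN2 ranged from 0.67 to 3.48 under 30 (adjusted p-values from 0.0952 to 0.456).

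Replicate numbers repeat across groups but name different pigs, and deviations of same-numbered arrays correlated between -0.40 and 0.16. With the number as a replicate block, CXCL2 was 1.03 above control in rIPCl (adjusted p = 0.0805). No count of members changed, with 1, 0 and 0 members past the unadjusted criteria. The share of all probes under this block was not computed. With 5 arrays per group and dim spots for CSF3, CXCL8, S100A8 and S100A9 on some arrays, moderate differences in these genes cannot be resolved. The alternative that planned mean spot signals for normexp was run on median signals, chosen after seeing the data. So were the other probe, the counts of listed genes with 1 array left out and the shares of all probes given under changed settings.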

Other observations

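Genes of tubular injury were measured for 11 of 16 listed, beside LCN2. In rIPCl against control, CLU (clusterin, log2 difference 2.02, adjusted p = 0.0277), VCAM1 (1.57, adjusted p = 0.021) and CST3 (cystatin C, 0.82, adjusted p = 0.0313) had an adjusted limma p under 0.05, and SOX9 (2.50), a factor of tubule repair that was well above background on 1 of 5 control arrays, and TIMP1 (mean log2 signal 14.90 against 13.80) met the unadjusted criteria. The keratin KRT8 differed by -0.25 and SPP1 (osteopontin) by 0.63, neither past a criterion. CLU, SOX9 and VCAM1 also met the unadjusted criteria in rIPCe (1.48, 1.82 and 1.01). The platelet gene ITGA2B was 0.47 higher in rIPCl (adjusted p = 0.0348). Endothelial (3 genes), distal nephron (3 genes) and podocyte (1 gene) markers held 0 genes past either criterion.

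Control 1, which was high for CXCL8, LCN2 and S100A12, was also high for some inflammatory genes and lists and not for others. Its LYZ signal was 13.13 against 9.18 to 10.08 in the other 4 controls, its IL1B signal 8.05 against 4.23 to 4.90, its SAA3 signal 12.57 against 8.41 to 9.73 and its TLR2 signal 9.61 against 8.13 to 8.36. It was the highest control for 9 of 12 receptor and adhesion genes and 8 of 11 NF-kappaB and STAT3 genes. It was also highest for 9 of 11 tubular injury genes and 7 of 9 T and NK cell markers. For S100A8 and S100A9 reception this was 3 of 10 genes. For acute phase and iron genes it was 1 of 14, and control 1 was the lowest for 6 of them. Control 1 was the lowest control for 5 of 5 proximal tubule markers. Without control 1, genes with an adjusted p under 0.05 in rIPCl numbered 5 of 15 granule and effector genes and 6 of 12 receptor and adhesion genes, against 2 and 2 with it, while over all probes the share went from 6.27% to 7.51%. Without control 5 they numbered 2 and 1, when the share of all probes was 11%, and over all 10 arrays left out in turn they ranged from 0 to 5 and from 0 to 6.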
